A study of Mus musculus with 12 samples.

Results

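The genes described are 10 components of interferon signalling: the interferon receptor chains Ifnar1, Ifnar2, Ifngr1 and Ifngr2, the Janus kinases Jak1, Jak2 and Tyk2, and the suppressors of cytokine signalling Socs1, Socs2 and Socs3. They were taken by gene symbol from the array annotation, which gave 10 of 18193 annotated genes and 25 of 45101 probe sets (a probe set is the group of short probes that reports 1 transcript). Each gene was represented by its brightest probe set over all arrays, and its other probe sets served as a check. After a filter that kept genes with a signal of 100 or more on at least 4 of the 12 arrays, 10269 genes were tested, among them 9 of the 10 members. Socs1 reached 100 on 1 array and was not tested.

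The arrays measured RNA of cultured endothelial cells in 3 groups of 4 arrays. The sample descriptions give wild-type newborn mice as the source of the control cells, and for the other groups they name the TNF exposure. In the tmTNF group the cells stably carried a mutant transmembrane form of murine tumour necrosis factor (TNF, an inflammatory cytokine) that cannot be cleaved from the cell surface. In the soluble TNF group the cells received TNF at 20 ng/ml for 4 h, and in the control group they were mock-transfected. All groups grew in DMEM with fetal calf serum. The labels name no promoter for the construct, do not say whether the transfected cells were 1 clone or a pool, and leave unclear whether the soluble TNF cells had been mock-transfected. The study set long against short TNF exposure, each against the same control arrays.

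Interferons bind pairs of receptor chains that have no kinase activity of their own. Type I interferons bind Ifnar1 with Ifnar2, to which Tyk2 and Jak1 are attached, and interferon gamma binds Ifngr1 with Ifngr2, which carry Jak1 and Jak2. The kinases phosphorylate STAT transcription factors, which enter the nucleus and switch on interferon-stimulated genes, and the SOCS proteins are induced by the same signals and switch the receptors and kinases off again. In endothelium this pathway is known for raising antigen presentation, antiviral genes and T-cell-attracting chemokines.

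None of the 9 tested members passed the threshold (limma, Benjamini-Hochberg adjusted p of 0.05 over all 10269 genes) in any of the 3 comparisons. The count was 0 of 9 for tmTNF against control, where 0.195% of all genes passed, 0 of 9 for soluble TNF against control, where 0.039% passed, and 0 of 9 for tmTNF against soluble TNF, where 1.22% passed. At these low shares of all genes, a count of 0 among 9 genes lies near the background. Without adjustment, 0, 2 and 1 of the members had a limma p under 0.05 in these comparisons, beside 7.56%, 12.7% and 19.9% of all genes. The exact permutation test of the 4 against 4 arrays, two-sided, gave a p under 0.05 for 0, 1 and 0 of the 10 members, unadjusted. With 70 ways to split 8 arrays, the smallest p it can give is 0.0286. This is its only value under 0.05, and it arises only where the groups do not overlap. Such groups were found for 3.17%, 8.11% and 16.1% of all genes in the same order. The members with an unadjusted limma p under 0.05 were Ifngr2 and Ifnar2 for soluble TNF against control and Jak2 for tmTNF against soluble TNF.

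The members' median log2 fold change was 0.20 for tmTNF against control, 0.15 for soluble TNF against control and -0.01 for tmTNF against soluble TNF. Over all 10269 genes the medians were 0.03, -0.05 and 0.08. In absolute size the members' median was 0.26, 0.55 and 0.37 in the same order, against 0.24, 0.31 and 0.37 over all genes. The 3 comparisons share arrays, so their values are not independent.

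**Figure D1:**
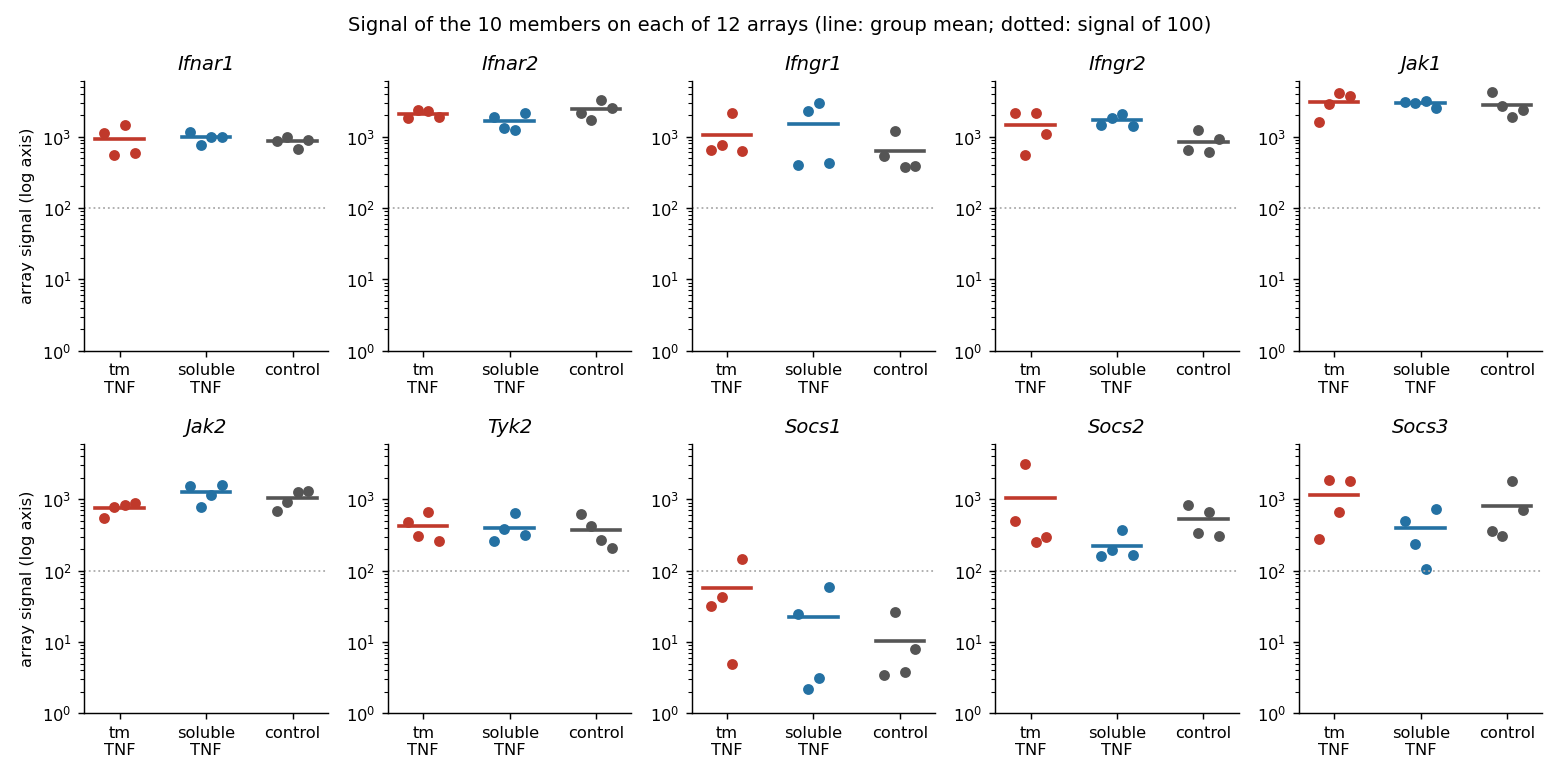
Array signal (log axis) of each of the 10 members on the 4 tmTNF, 4 soluble TNF and 4 control arrays, with a line at each group mean and a dotted line at a signal of 100. The groups overlap for every member except Ifngr2, whose soluble TNF arrays (1406 to 2060) all lie above the control arrays (601.3 to 1230), and Socs1 lies under 100 on all arrays but 1.

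A few facts of the whole series touch these values. On each array 17652 to 19174 probe sets read 100 or more, and correlations between arrays of 1 group, across probe sets that are not independent replicates, were 0.796 to 0.939 for tmTNF, 0.877 to 0.983 for soluble TNF and 0.744 to 0.881 for control. The Y-linked gene Eif2s3y had signals of 496.6 to 1683 on the tmTNF arrays and 37.9 or less on the 8 others, so tmTNF and this difference between the cells cannot be told apart. The Tnf probe set read 77.2 or less on all 12 arrays and did not check the transfection. All 14 endothelial markers passed the filter, with summed signals of 26330 to 124019 on tmTNF arrays, 30815 to 71641 on soluble TNF arrays and 13753 to 117810 on control arrays. The arrays also differed in markers of other cells. Of 8 fibroblast markers 4 passed the filter (Col1a1, Col1a2, Col3a1 and Pdgfra), Lum and Thy1 stayed under 100 on every array, and the signal summed over all 8 was 332 to 8472 on tmTNF arrays, 212 to 8141 on soluble TNF arrays and 299 to 10035 on control arrays. Of 10 leukocyte markers 3 passed (Cd68, Csf1r and Lyz2, genes of macrophages), and Ptprc, which leukocytes carry in general, stayed under 100 on every array, as did Adgre1, Itgam, Cd3e and Cd79a. The 3 genes summed to 271 to 7009 on tmTNF arrays, 331 to 445 on soluble TNF arrays and 585 to 18436 on control arrays, highest on tmTNF replicates 1 and 3 and control replicate 1. Of 7 smooth muscle and pericyte markers only Acta2 passed, and Myh11, Cnn1 and Rgs5 stayed under 100 on every array. Acta2 read 101 to 238 on tmTNF arrays, 736 to 1668 on soluble TNF arrays and 98 to 1043 on control arrays. Its signals did not overlap between the TNF exposures (log2 -2.81 ± 0.63 for tmTNF against soluble TNF, limma adjusted p = 0.0543). The signal summed over all 7 markers did overlap, at 278 to 1812 on tmTNF arrays, 875 to 1825 on soluble TNF arrays and 169 to 1269 on control arrays. The part of Acta2 in the member signals was not tested. Of 8 epithelial and mesothelial markers 2 passed (Krt19 and Msln), and Cdh1, Krt18, Upk3b and Wt1 stayed under 100 on every array. The sum over these 8 was 268 to 14249 on tmTNF arrays, 512 to 4547 on soluble TNF arrays and 527 to 10720 on control arrays. In cultures measured in bulk, fewer cells of a type and less RNA per cell cannot be told apart.

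Among the receptors, Ifngr2, the signal-transducing chain of the interferon gamma receptor, had the lowest unadjusted p. Its signals were 1442, 1819, 2060 and 1406 on the soluble TNF arrays (1681 ± 313.8, SD, n = 4), against 643.3, 1230, 601.3 and 911.0 on the control arrays (846.3 ± 290.0, n = 4). Every soluble TNF array lay above every control array. Ifngr2 was the 1 of 9 members whose groups did not overlap in this comparison, beside 8.11% of all genes. For tmTNF against control and tmTNF against soluble TNF, 0 of 9 members had groups that did not overlap, beside 3.17% and 16.1% of all genes. The log2 fold change was 1.02 ± 0.40 (SE; 95% interval 0.15 to 1.89), or 2.02-fold, and it did not pass the test over all genes (limma adjusted p = 0.338). The exact permutation p was 0.0286, the smallest possible, which restates that the groups did not overlap. Ifngr2 ranked 771 of 10269 genes by p in this comparison. The 4 tmTNF arrays, at 2136, 557.4, 2115 and 1072, spread over the range of both other groups, and the log2 fold change against control was 0.65 ± 0.40 (adjusted p = 0.799). The lower tmTNF signals, on replicates 2 and 4, and the lowest control signal, on replicate 3, came from the arrays with the lowest mean endothelial marker levels (9.76, 9.74 and 8.76, log2 scale). Soluble TNF replicate 1, next lowest at 10.03, read 1442. The part of these markers in the Ifngr2 signal was not tested.

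A second Ifngr2 probe set did not show the difference. It read 351.2, 277.6, 312.8 and 392.2 on the soluble TNF arrays, against 379.5, 314.0, 234.3 and 455.3 on the control arrays, and the groups overlapped. Its log2 fold change was -0.02 ± 0.33 (adjusted p = 0.987 over 18022 probe sets). Across the 12 arrays the probe sets of Ifngr2 correlated at r = 0.49, given as a description, so the size of any Ifngr2 change depends on which probe set is read. Control replicates 3 and 4 and soluble TNF replicates 1 and 4 had the highest mean levels of the tested fibroblast markers. Without them, with 2 arrays left in each of these groups, the brighter probe set gave 1.11 ± 0.65 and did not pass (limma adjusted p = 0.557).

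The promoter of Ifngr2 held a match to a kB-type motif, the class of site bound by NF-kB, the factor that TNF activates, and it is printed for that reason. RefSeq promoter sequence, 300 bases from 250 before to 50 after the start of the gene in the build GRCm38.p6, was matched for 9 of the 10 members. The Ifngr2 promoter lies at chr16:91546809-91547108 on the plus strand, and capitals mark the match at positions -75 to -66 from the start.
Ifngr2 promoter: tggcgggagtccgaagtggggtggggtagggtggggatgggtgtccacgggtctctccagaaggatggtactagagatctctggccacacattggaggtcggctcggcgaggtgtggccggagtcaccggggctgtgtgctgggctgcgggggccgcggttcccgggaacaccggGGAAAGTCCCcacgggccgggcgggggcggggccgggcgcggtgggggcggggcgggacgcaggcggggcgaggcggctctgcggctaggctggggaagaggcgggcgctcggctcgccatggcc
The match is on the opposite strand, where it reads GGGACTTTCC. Both strands were searched, and 4.51% of the 32851 promoters in the table held a kB-type match. Among the members, Ifngr2 held the only one. The match is a description of these letters and not evidence of binding.

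Ifngr1, the ligand-binding chain of the interferon gamma receptor, varied more between arrays of 1 group than 90.4% of all genes (within-group SD 1.09 on the log2 scale, against a median of 0.45 over all genes). Its signals were 654.7, 752.4, 2112 and 636.8 on tmTNF arrays, 398.7, 2269, 2977 and 423.3 on soluble TNF arrays, and 531.8, 1198, 379.3 and 381.8 on control arrays. In each group 1 or 2 arrays stood well above the others, and the groups overlapped. The log2 fold change was 0.69 ± 0.68 for tmTNF against control (adjusted p = 0.903) and 0.89 ± 0.68 for soluble TNF against control (adjusted p = 0.607).

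The low Ifngr1 arrays were those with high levels of the 4 fibroblast markers that passed the filter. The 4 lowest Ifngr1 signals of all 12 arrays, 379.3 to 423.3, came from soluble TNF replicates 1 and 4 and control replicates 3 and 4. These arrays had the 4 highest mean levels of the 4 tested fibroblast markers, at 10.19, 10.35, 10.76 and 9.05 on the log2 scale. The other 8 arrays lay between 5.05 and 6.90. On tmTNF arrays the 4 tested markers summed to 1077 or less, but all 8 listed markers summed to as much as 8472. The ranking is therefore that of the 4 tested markers alone. Without these 4 arrays, which hold the lowest Ifngr1 signals, Ifngr1 was 0.17 for tmTNF against control (limma adjusted p = 0.951). It was 1.68 for soluble TNF against control (adjusted p = 0.446) and -1.51 for tmTNF against soluble TNF (adjusted p = 0.279). The part of these markers in the Ifngr1 signal was not tested.

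Ifnar2, the chain of the type I receptor that binds interferon most tightly, had signals of 1857, 1302, 1245 and 2130 on soluble TNF arrays (1633 ± 431.2, SD, n = 4), against 2166, 1703, 3248 and 2519 on control arrays (2409 ± 651.7). The soluble TNF arrays reached lower, and the groups overlapped. The log2 fold change was -0.55 ± 0.24 (SE; 95% interval -1.08 to -0.02; limma adjusted p = 0.38; exact permutation p = 0.114), which did not pass the test. The tmTNF arrays read 1804, 2357, 2313 and 1903, and their log2 fold change against control was -0.17 ± 0.24 (adjusted p = 0.939). In the other groups the higher signals came from soluble TNF replicates 1 and 4 and control replicates 3 and 4. These arrays had the highest mean levels of the tested fibroblast markers. Across the 12 arrays Ifnar2 and these levels correlated at r = 0.61, as a description. The part of these markers in the Ifnar2 signal was not tested.

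The probe sets of Ifnar2 disagreed in sign. The other 2 that passed the filter gave log2 fold changes of 0.67 ± 0.34 (adjusted p = 0.431 over 18022 probe sets) and 0.62 ± 0.35 (adjusted p = 0.488) for soluble TNF against control. Across the 12 arrays they ran against the brightest probe set (r = -0.37 and -0.61, as a description). The direction for Ifnar2 is therefore not settled by these arrays.

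**Figure D2:**
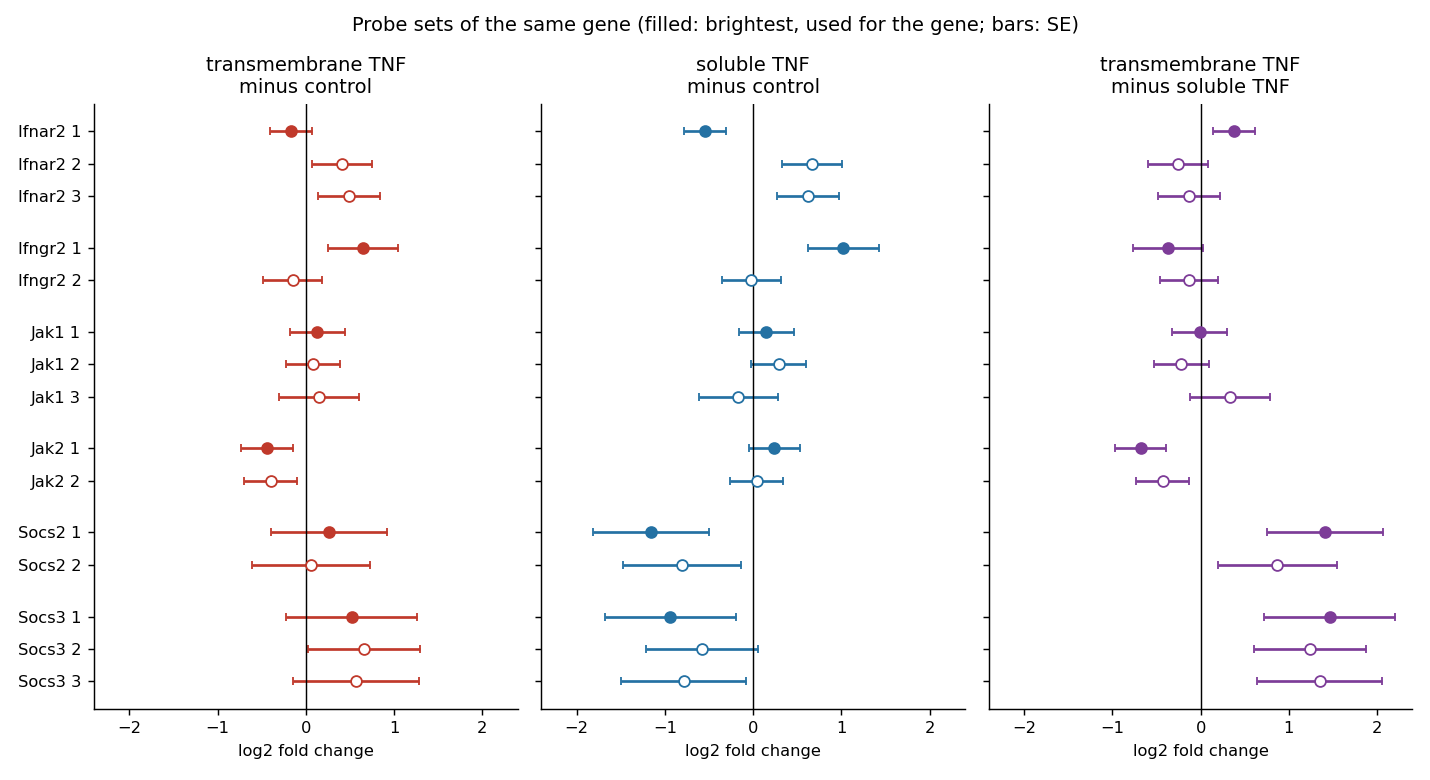
Log2 fold change (points) and its standard error (bars) of each probe set that passed the filter, for the members with more than 1, in the 3 comparisons; filled points are the brightest probe set of each gene. For soluble TNF minus control the brightest Ifnar2 probe set is at -0.55 and the other 2 at 0.67 and 0.62, and the Ifngr2 probe sets are at 1.02 and -0.02.

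The Ifnar2 promoter, at chr16:91372533-91372832 on the plus strand, and the Ifnar1 promoter were 2 of the 3 member promoters with a GAS-type match. GAS sites are the elements that STAT dimers bind, and the motif searched was TTCNNNGAA, which reads the same on both strands. It was present in 8.3% of the 32851 promoters. The Ifnar2 promoter is printed with its match, at -214 to -206, in capitals.
Ifnar2 promoter: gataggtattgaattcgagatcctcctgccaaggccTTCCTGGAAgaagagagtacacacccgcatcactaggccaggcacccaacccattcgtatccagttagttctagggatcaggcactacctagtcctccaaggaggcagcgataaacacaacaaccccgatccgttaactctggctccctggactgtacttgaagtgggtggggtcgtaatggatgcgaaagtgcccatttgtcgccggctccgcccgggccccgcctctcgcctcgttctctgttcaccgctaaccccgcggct
In the Ifnar1 promoter the match TTCACGGAA lay at -5 to 3.

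Ifnar1, the chain of the type I receptor that carries Tyk2, had a mean signal of 938.6 ± 442.2 on tmTNF arrays, 972.5 ± 165.2 on soluble TNF arrays and 856.6 ± 140.0 on control arrays (SD, n = 4 each). The log2 fold changes were 0.03 ± 0.31 (95% interval -0.64 to 0.69) for tmTNF against control and 0.18 ± 0.31 (-0.49 to 0.84) for soluble TNF against control. The tmTNF arrays spread widely, at 1133, 554.4, 1471 and 595.5, and the sign of the tmTNF difference turned when tmTNF replicate 1, tmTNF replicate 3 or control replicate 3 was left out (range over all single arrays left out -0.23 to 0.23).

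Among the kinases, Jak2, which is attached to Ifngr2 and to many cytokine receptors, was the only member with an unadjusted p under 0.05 between the TNF exposures. Its signals were 543.9, 785.4, 821.2 and 884.4 on tmTNF arrays (758.7 ± 149.0, SD, n = 4), against 1513, 768.8, 1142 and 1595 on soluble TNF arrays (1255 ± 379.1). On 3 of the 4 soluble TNF arrays Jak2 lay above all tmTNF arrays, and replicate 2 fell among them. The log2 fold change was -0.68 ± 0.29 (95% interval -1.31 to -0.05; limma adjusted p = 0.221; exact permutation p = 0.114). A second Jak2 probe set, which followed the first across the 12 arrays (r = 0.93), gave -0.43 ± 0.30 (adjusted p = 0.464). On the control arrays Jak2 read 692.2, 927.2, 1275 and 1323, and the log2 fold change against control was -0.44 ± 0.29 for tmTNF (adjusted p = 0.825) and 0.24 ± 0.29 for soluble TNF (adjusted p = 0.768).

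The 4 highest Jak2 signals of the 12 arrays, 1275 to 1595, came from the same 4 arrays that had the highest levels of the tested fibroblast markers. No tmTNF array was among them, in a ranking that leaves out the fibroblast markers that did not pass the filter. Without those arrays the difference of tmTNF from soluble TNF was -0.32 (adjusted p = 0.662), a value that has to be smaller since they hold the highest Jak2 signals, and the part of the markers in it was not tested. When arrays were weighted by their scatter, a setting that gives less weight to arrays that deviate, Jak2 was -0.86 and passed (adjusted p = 0.0498). In that setting 1176 of the 10269 genes passed between the exposures, against 125 in the main fit.

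**Figure D3:**
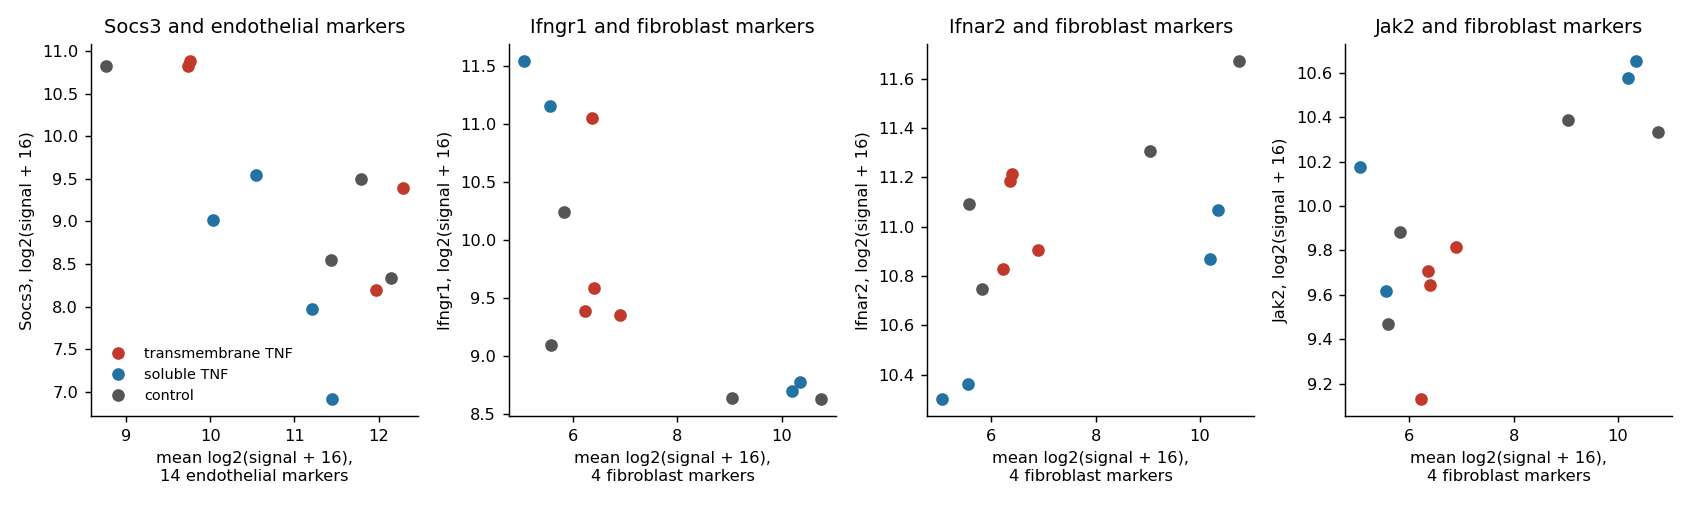
Level of Socs3, Ifngr1, Ifnar2 and Jak2 (log2 of signal + 16, vertical) against the mean level of 14 endothelial or 4 fibroblast markers (horizontal, same scale) on the 12 arrays, coloured by group. The 4 arrays at fibroblast levels of 9.05 to 10.76 have the lowest Ifngr1 and the highest Jak2 values, and the 3 arrays with endothelial levels of 8.76, 9.74 and 9.76 have the highest Socs3 values.

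Jak1, the kinase that both interferon receptors share, had signals of 1588, 2839, 4141 and 3726 on tmTNF arrays, 3038, 2908, 3199 and 2544 on soluble TNF arrays and 4148, 2662, 1856 and 2337 on control arrays. The soluble TNF arrays lay close together and inside the range of both other groups. The log2 fold changes were 0.13 ± 0.31 for tmTNF against control, 0.15 ± 0.31 for soluble TNF against control and -0.01 ± 0.31 (95% interval -0.68 to 0.66) for tmTNF against soluble TNF. Tyk2, the kinase of Ifnar1, averaged 426.4 ± 179.2 on tmTNF arrays, 399.8 ± 166.0 on soluble TNF arrays and 375.7 ± 181.7 on control arrays (SD, n = 4 each). Its log2 fold changes were 0.20 ± 0.40 (95% interval -0.66 to 1.07), 0.13 ± 0.40 (-0.74 to 0.99) and 0.08 ± 0.40 (-0.78 to 0.94) in the same 3 comparisons. Only 2.7% of the variance of Jak1 and 2.6% of that of Tyk2 lay between groups, against a median of 23.0% over all genes. For both kinases the sign of each difference turned when single arrays were left out, so no direction is given.

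**Figure D4:**
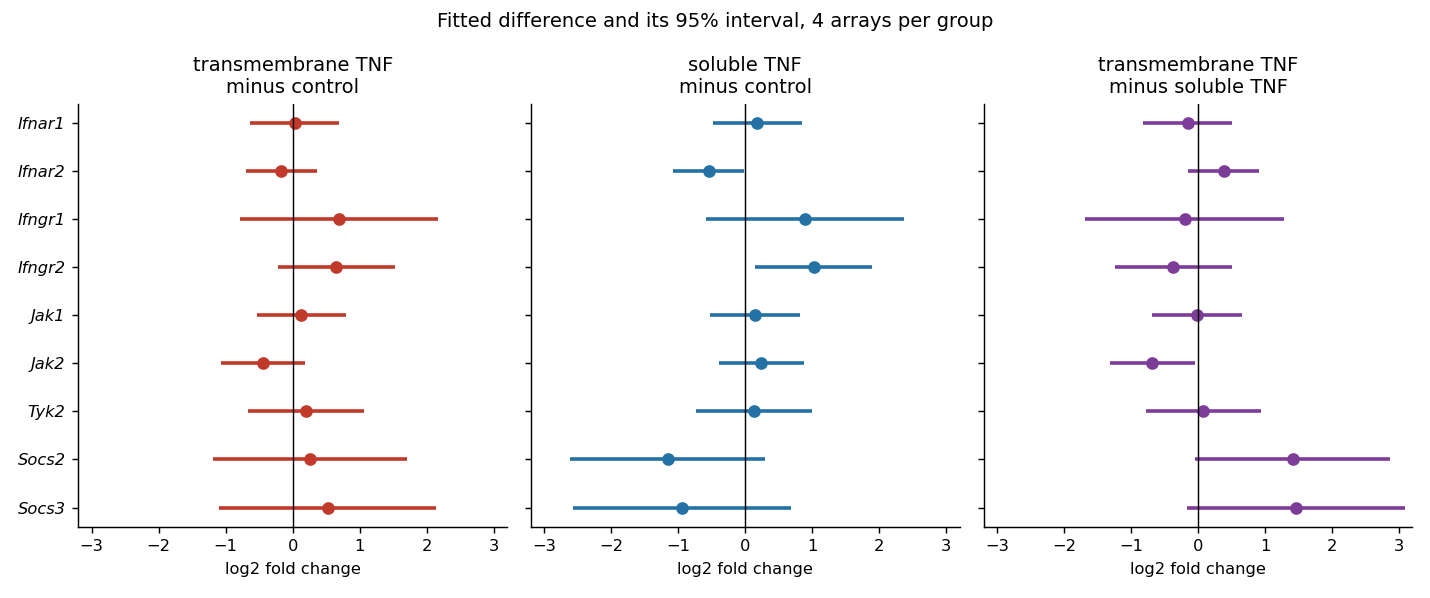
Log2 fold change (point) and its 95% interval (line) of the 9 tested members in the 3 comparisons, 4 arrays per group, with a vertical line at 0. The intervals of Ifngr2 (0.15 to 1.89) and Ifnar2 (-1.08 to -0.02) for soluble TNF minus control and of Jak2 (-1.31 to -0.05) for transmembrane TNF minus soluble TNF leave out 0, and none of the adjusted p-values passes 0.05.

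Among the suppressors, Socs3, which blocks Jak1, Jak2 and Tyk2 at receptors such as that of interleukin 6, had signals of 278.0, 1877, 654.6 and 1802 on tmTNF arrays (1153 ± 808.0, SD, n = 4), against 501.8, 235.8, 104.2 and 731.4 on soluble TNF arrays (393.3 ± 279.6). On control arrays it read 358.7, 308.2, 1805 and 709.6 (795.3 ± 696.2). The groups overlapped in all comparisons, and Socs3 varied more between arrays of 1 group than 92.2% of all genes. The log2 fold change of tmTNF against soluble TNF was 1.46 ± 0.75 (95% interval -0.16 to 3.09; adjusted p = 0.292). It was 0.52 ± 0.75 for tmTNF against control (adjusted p = 0.94) and -0.94 ± 0.75 for soluble TNF against control (adjusted p = 0.617). The other 2 Socs3 probe sets followed it at r = 0.99 across the 12 arrays and gave 1.24 and 1.35 for tmTNF against soluble TNF.

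The highest Socs3 signals, 1877 and 1802 on tmTNF replicates 2 and 4 and 1805 on control replicate 3, came from the 3 arrays with the lowest mean endothelial marker levels (9.76, 9.74 and 8.76 on the log2 scale). The same 3 arrays had the highest mean levels of Krt19 and Msln, at 12.38, 11.40 and 12.27. Soluble TNF replicates 4 and 1 came next, at 11.05 and 10.78, with lower Socs3 signals of 731.4 and 501.8. The part of these markers in the Socs3 signal was not tested. The Socs3 promoter, at chr11:117969317-117969616 on the minus strand, is printed because STAT3 is known to induce this gene through GAS sites, and its GAS-type match, at -154 to -146, is in capitals.
Socs3 promoter: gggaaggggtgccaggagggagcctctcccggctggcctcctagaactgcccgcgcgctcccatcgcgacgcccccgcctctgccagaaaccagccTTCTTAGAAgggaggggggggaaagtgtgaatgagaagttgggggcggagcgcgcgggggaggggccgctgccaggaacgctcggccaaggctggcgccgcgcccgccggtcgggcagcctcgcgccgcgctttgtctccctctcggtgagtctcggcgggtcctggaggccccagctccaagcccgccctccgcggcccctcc

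Socs2, best known as a brake on growth hormone signalling, had signals of 495.0, 3093, 255.0 and 295.1 on tmTNF arrays, 162.4, 197.6, 366.2 and 166.5 on soluble TNF arrays and 839.1, 336.3, 666.6 and 302.4 on control arrays. Replicate 2 of the tmTNF group stood far above all other arrays, and soluble TNF arrays lay lowest, with some overlap. The log2 fold change of soluble TNF against control was -1.16 ± 0.67 (95% interval -2.61 to 0.30; limma adjusted p = 0.493; exact permutation p = 0.0857). That of tmTNF against soluble TNF was 1.41 ± 0.67 (adjusted p = 0.262), and it was 0.63 without tmTNF replicate 2. Against control, tmTNF differed by 0.26 ± 0.67 (adjusted p = 0.963), and by -0.53 without that array, so the sign rested on it. A second Socs2 probe set also peaked on this array, at 1892, and followed the first at r = 0.96 across the 12 arrays. The other 4 Socs2 probe sets did not pass the filter.

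Socs1, the strongest brake on interferon receptors, was near or under background on nearly all arrays. Its signals were 31.6, 42.2, 5.0 and 146.5 on tmTNF arrays, 24.9, 2.2, 3.1 and 59.6 on soluble TNF arrays and 3.5, 26.4, 3.8 and 8.0 on control arrays. Only tmTNF replicate 4 exceeded 100. In a fit without the filter, over all 18193 genes, tmTNF differed from control by 1.15 ± 0.59 (limma adjusted p = 0.762) and from soluble TNF by 0.79 ± 0.59 (adjusted p = 0.584). Values this low have no reliable order, and a change of Socs1 was not detectable on these arrays. Its promoter, at chr16:10785487-10785786 on the minus strand, held the only member match to the ISRE-type motif (GAAA, any 2 bases, then GAAA), the element through which type I interferon acts. There were 2 overlapping matches, GAAAGAGAAA at -83 to -74 and GAAACCGAAA at -77 to -68, shown as 1 run of capitals, and 3.44% of all promoters held a match on either strand.
Socs1 promoter: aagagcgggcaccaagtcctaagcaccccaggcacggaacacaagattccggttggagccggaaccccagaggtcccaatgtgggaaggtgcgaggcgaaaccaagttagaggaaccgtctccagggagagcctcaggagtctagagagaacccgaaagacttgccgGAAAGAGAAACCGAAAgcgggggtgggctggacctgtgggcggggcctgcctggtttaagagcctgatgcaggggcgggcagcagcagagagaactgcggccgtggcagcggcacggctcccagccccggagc

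The rest of the pathway was set beside the members. Of the 6 tested STATs and Irf9 (8 listed), 1 rose in tmTNF cells against control and 2 rose against soluble TNF, and 0 passed for soluble TNF against control. Stat2, the partner of Irf9 in the complex that binds ISRE sites, had signals of 1478, 1391, 1203 and 2160 on tmTNF arrays, 254.8, 211.7, 368.6 and 324.2 on soluble TNF arrays and 353.2, 490.8, 602.9 and 358.9 on control arrays. Every tmTNF array lay above every other array. Stat2 rose 3.37-fold in tmTNF cells against control (log2 1.75 ± 0.26, limma adjusted p = 0.0134), and it was 5.13-fold higher than in soluble TNF cells (2.36 ± 0.26, adjusted p = 0.00159). The rise against control did not pass when tmTNF replicate 4 or control replicate 4 was left out, nor with the same median on every array (1.61, adjusted p = 0.0716) or with only the 2 groups in the fit (adjusted p = 0.0617). The difference from soluble TNF passed whichever single array was left out.

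Irf9 was 3.87-fold higher in tmTNF than in soluble TNF cells (1.95 ± 0.34, adjusted p = 0.0214), a call lost without tmTNF replicate 2, 3 or 4 or soluble TNF replicate 2. Its signals were 2028, 3147, 2685 and 3083 on tmTNF arrays, 896.0, 396.1, 755.4 and 815.9 on soluble TNF arrays and 685.5, 1572, 1913 and 1241 on control arrays. Against control, its log2 fold change was 1.08 ± 0.34 (adjusted p = 0.368) in tmTNF cells and -0.87 ± 0.34 (adjusted p = 0.33) in soluble TNF cells. The 6 genes had a median log2 fold change of 0.12 for tmTNF against control, -0.25 for soluble TNF against control and 0.32 for tmTNF against soluble TNF.

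Of 15 other brakes on JAK-STAT signalling (Cish, Socs4 to Socs7, the PIAS proteins, phosphatases, Usp18 and Sh2b3), 1 passed in 1 comparison. Usp18, which binds Ifnar2 and keeps Jak1 from it, had signals of 9627, 8763, 7855 and 12026 on tmTNF arrays, 1589, 263.9, 699.4 and 1359 on soluble TNF arrays and 411.5, 1724, 5722 and 1793 on control arrays. It was 11.6-fold higher in tmTNF than in soluble TNF cells (3.54 ± 0.69, adjusted p = 0.0362). That call was lost in 7 of the 12 fits that left out 1 array, those without tmTNF replicate 2, 3 or 4 or any soluble TNF replicate. Against control the difference was 2.51 ± 0.69 (adjusted p = 0.262), with no overlap between the groups. The lowest p of the list for soluble TNF against control was that of Pias3, an inhibitor of STAT3, at -0.62 ± 0.26 (adjusted p = 0.368).

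Of 35 other receptor chains and Jak3, 13 were tested, and 1 passed. Il13ra1, a chain of the interleukin 13 receptor, fell in tmTNF cells, with signals of 73.5, 8.4, 1.9 and 41.5, against 671.5, 547.8, 1618 and 936.9 on soluble TNF arrays and 1227, 524.2, 1672 and 605.6 on control arrays. Since all tmTNF signals lay under 100, it was at least 7.9-fold lower in tmTNF cells than in control cells (adjusted p = 0.00461) and at least 7.6-fold lower than in soluble TNF cells (adjusted p = 0.00208). Without control replicates 3 and 4 and soluble TNF replicates 1 and 4, with 2 arrays left in each of these groups, the log2 differences of Il13ra1 were -4.40 against control and -4.63 against soluble TNF, close to -4.56 and -4.51 with all arrays, and did not pass (adjusted p = 0.118 and 0.0526). On the same 8 arrays Stat2 against control was 1.83 (adjusted p = 0.155), and between the exposures Irf9 was 2.27 (adjusted p = 0.0727) and Tslp -2.80 (adjusted p = 0.0519). Stat2 (2.38, adjusted p = 0.0436) and Usp18 (4.40, adjusted p = 0.0296) still passed between the exposures. Ghr, the growth hormone receptor that Socs2 restrains, had the lowest p of the list for soluble TNF against control, at 0.83 ± 0.40 (adjusted p = 0.418).

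Of 24 JAK-STAT cytokine ligands, 5 were tested. The 6 interferon genes of that list that were on the array (Ifna1, Ifna2, Ifna4, Ifna5, Ifnb1 and Ifng) stayed under 100 on every array. Ifnb1, the main type I interferon of non-immune cells, reached at most 88.8 on tmTNF arrays, 62.5 on soluble TNF arrays and 67.0 on control arrays. Tslp, a cytokine of barrier cells, read 113.0, 114.8, 102.7 and 116.9 on tmTNF arrays, against 447.7, 675.4, 1124 and 602.0 on soluble TNF arrays. It was lower in tmTNF cells (log2 -2.43 ± 0.50, adjusted p = 0.0401), and only 3 of the 12 fits without 1 array kept the call, those without control replicate 1, 3 or 4. On control arrays Tslp read 59.5, 191.1, 92.9 and 504.5, and soluble TNF differed from control by 2.00 ± 0.50 (adjusted p = 0.219). Il7, a lymphocyte growth factor, read 332.2, 300.6, 144.2 and 400.8 on tmTNF arrays, against 77.7, 63.7, 82.5 and 76.5 on control arrays. With all control signals under 100 it was at least 2.53-fold higher in tmTNF cells, which did not pass (adjusted p = 0.0614) except in a fit without the intensity trend (adjusted p = 0.0267) and in 1 of the 12 fits that left out 1 array, that without tmTNF replicate 3 (adjusted p = 0.016).

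Interferon-stimulated genes, the targets of the pathway, were counted as a group. The list was drawn up with their rise in these samples already known, so its direction is not independent evidence. Of 42 tested interferon-stimulated genes, 6 rose in tmTNF cells against control, with a median log2 fold change of 2.21 over all 42, and 20 were higher than in soluble TNF cells, with a median of 2.10. For soluble TNF against control 0 of 42 passed and the median was -0.12. Over all genes the medians were 0.03, 0.08 and -0.05. The mean level of the 42 genes was 11.60, 11.78, 11.64 and 12.46 on tmTNF arrays, 9.85, 8.67, 9.99 and 9.68 on soluble TNF arrays and 8.81, 9.82, 9.96 and 9.68 on control arrays (log2 of signal + 16). Every tmTNF array lay above every other array. Leaving out single arrays moved the count against control between 2 and 11, by more than 1.5 times for control replicate 3 (11), control replicate 4 (2), tmTNF replicate 2 (3) and soluble TNF replicate 2 (10). The count against soluble TNF moved between 9 and 28, with 9 to 13 when tmTNF replicate 2, 3 or 4 or soluble TNF replicate 1, 2 or 4 was left out. Without control replicates 3 and 4 and soluble TNF replicates 1 and 4, the counts were 0 and 10. Of 14 tested NF-kB targets, 1 rose in tmTNF cells against control (median 1.44 over the list), and 1 rose in the soluble TNF group against control (median 2.59). Between the exposures 1 of the 14, Nfkb2, an NF-kB subunit, was lower in tmTNF cells (log2 -1.49 ± 0.26, adjusted p = 0.0232), and the median was -0.64, with 1 of 14 above 0.

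**Figure D5:**
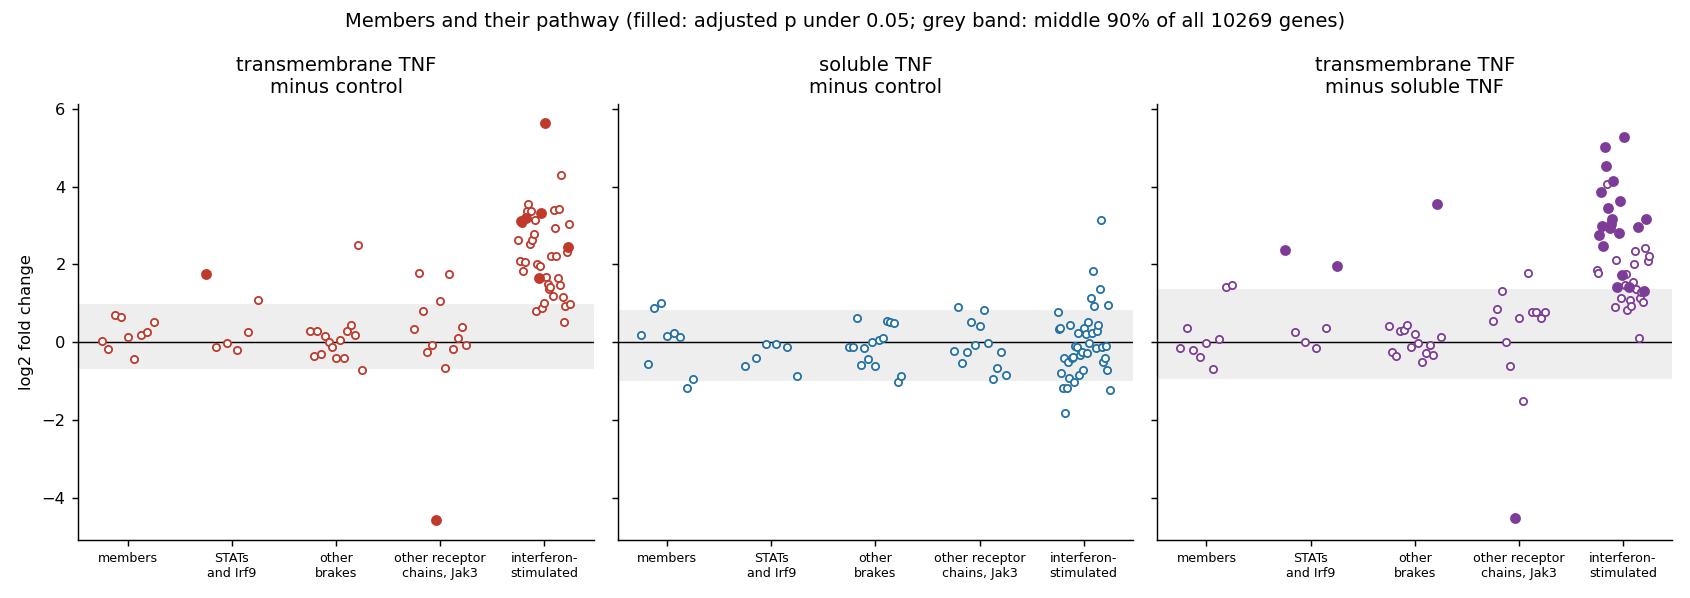
Log2 fold change of the members and of their pathway lists in the 3 comparisons, 1 point per gene, filled where the adjusted p is under 0.05, with a grey band for the middle 90% of all 10269 genes. No member is filled in any panel, and the interferon-stimulated genes lie highest in both comparisons of transmembrane TNF, with medians of 2.21 and 2.10.

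For the 3 members with an unadjusted p under 0.05, the genes with the most similar pattern over the 12 arrays, among 9975 searched, are given with Pearson's r as a description. They were Svil (r = 0.953), Ergic3 (0.948) and Fgfr1 (0.947) for Ifnar2. For Ifngr2 they were Ptges3l (0.925), Snx17 (0.892) and Grk5 (0.885), and for Jak2 Odf2 (0.912), Dpysl2 (0.906) and Idh2 (0.899). For Socs2 and Socs3, added after their values had been seen, the closest were Pign (0.931) and Xdh (0.951). All values from 1 array share its scaling and its RNA.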

How the data were processed

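The deposited values are linear signal intensities for each probe set, which the authors computed with MAS5 per the submitters' processing notes. They ran from 0.1 to 95672 with a 2% trimmed mean of 1000 on every array, so arrays had been brought to a common level before deposit. Detection calls were not used. The MAS5 version is not given in the sources used here.

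Leaving out 64 control probe sets, arrays were set to a 2% trimmed mean of 500 and transformed as log2(signal + 16). Fold changes are on that scale, which understates the change of dim genes. Of the probe sets, 34945 had 1 gene symbol in the platform annotation, 932 had several and 9160 had none. Gene identifiers were looked up in the RefSeq gene table of GRCm38.p6, which held 34741 and changed 0 symbols. One limma model (version 3.58.1, R 4.3.3) held the 3 groups, with moderated variances that follow intensity (eBayes), two-sided p-values and Benjamini-Hochberg adjustment over all genes tested. The fit was tested on simulated data. Of the members, 10 genes in 3 comparisons gave 30 exact permutation tests, on mean log2 values and unadjusted. Where all arrays of a group lay under 100, the fold is a lower bound, taken against a signal of 100.

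Replicates were numbered in accession order, since the labels give no numbers, and the numbers pair no samples. The labels do not say that replicates were separate cultures or animals, so p-values may not reflect the spread between animals. Arrays of 1 group did differ widely in markers. In the soluble TNF group the tested fibroblast markers summed to 107 on replicate 3 and 8087 on replicate 1. The number of arrays limits the precision, and no depth applies to arrays.

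The members, lists, tests and rules were chosen with earlier results of these data known. The text names the members, for each pathway list up to 4 genes past the threshold or else the gene with the lowest p, and for members with an unadjusted p under 0.05 the 3 genes of most similar pattern. Interferon-stimulated genes and NF-kB targets depart from this and are given as counts. Motifs were searched with Python 3.11.15. Alternatives covered scaling, pseudocount, filter, merging of probe sets, the model and arrays left out.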

Additional observations from a re-analysis of the deposited data

Results flagged for a closer look

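The Ifngr1 signal of tmTNF replicate 3, 2112, stood apart from the other 3 tmTNF arrays, with a gap that made up 0.862 of the range of the group on the log2 scale and 0.922 on the signal scale, above Dixon's critical value for 4 samples. The Socs2 signal of tmTNF replicate 2, 3093, did so on the signal scale (0.915) and not on the log2 scale. Chance flags about 1 in 20 groups, and 30 groups were looked at on both scales.

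The effects of the TNF exposures, each against control, differed for 5 genes of the pathway in the fit across all genes (tmTNF minus soluble TNF, log2). The differences were 2.36 for Stat2, 1.95 for Irf9, 3.54 for Usp18, -4.51 for Il13ra1 and -2.43 for Tslp. None of the 9 tested members was among the genes that differed.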

How the results depend on the processing

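Over 25 alternatives, 626 of 675 member values kept their sign and their side of the threshold, 48 turned sign and 1 newly passed (Jak2, above). The causes were not tested. Between tmTNF and soluble TNF, 125 genes passed, and 239 with the same median on every array, 439 with only the 2 groups fitted and 1176 with array weights, where 1 member passed. For soluble TNF against control there were 4, and 2 with only the 2 groups fitted. Without tmTNF replicates 2 and 4 and control replicate 3, tmTNF against control gave 4 genes and soluble TNF against control gave 17. Without soluble TNF replicates 1 and 4 and control replicates 3 and 4, chosen after seeing the data, the counts were 8 (tmTNF against control), 0 (soluble TNF against control) and 43 (tmTNF against soluble TNF). With single arrays left out they ran from 16 to 66 for tmTNF against control, 0 to 22 for soluble TNF against control and 28 to 233 for tmTNF against soluble TNF, with 0 members called each time.

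Signs turned as follows. For tmTNF against control, Ifnar1 was -0.02 with quantile normalization, -0.12 with the same median and -0.04 with array weights, and Jak1 was -0.01 with the same median. For tmTNF against soluble TNF, Tyk2 was -0.10 and -0.15 under these 2 scalings, Jak1 was 0.04 with quantile normalization and 0.08 with array weights, and Ifngr1 was 0.60 with array weights. The same median moved the median of all genes to -0.12 (tmTNF against control) and -0.15 (tmTNF against soluble TNF). With the median of probe sets, Ifnar2 was 0.40, 0.62 and -0.22 (tmTNF against control, soluble TNF against control, tmTNF against soluble TNF). Without tmTNF replicates 2 and 4 and control replicate 3, Jak1 was -0.20 and Socs2 -0.30 (tmTNF against control), Jak1 -0.02 (soluble TNF against control), and Ifnar1 0.42, Ifngr1 0.18 and Ifngr2 0.35 (tmTNF against soluble TNF). A further setting left out the 4 arrays with the highest mean levels of the tested fibroblast markers. There Ifnar1 was -0.11, Ifnar2 0.11, Jak1 -0.20 and Tyk2 -0.33 (tmTNF against control). Ifnar1 was -0.10, Jak1 -0.12 and Tyk2 -0.04 (soluble TNF against control), and Tyk2 was -0.29 (tmTNF against soluble TNF).

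With single arrays left out, tmTNF against control ranged from -0.23 to 0.23 for Ifnar1, -0.04 to 0.42 for Jak1, -0.03 to 0.47 for Tyk2 and -0.53 to 0.64 for Socs2. For soluble TNF against control, Jak1 ranged from -0.02 to 0.36 and Tyk2 from -0.12 to 0.39. For tmTNF against soluble TNF the ranges were -0.41 to 0.05 for Ifnar1, -0.65 to 0.30 for Ifngr1, -0.61 to 0.03 for Ifngr2, -0.18 to 0.27 for Jak1 and -0.15 to 0.32 for Tyk2. Without tmTNF replicates 2 and 4 and control replicate 3, with fewer arrays, sizes stayed close while these calls were lost: Stat2 (1.71, adjusted p = 0.19) and Il13ra1 (-4.22, 0.156) against control, and Irf9 (1.75, 0.0721), Usp18 (3.42, 0.0645) and Tslp (-2.48, 0.0921) between the exposures. Without the filter Tslp did not pass (adjusted p = 0.0604). On the forward strand alone, 0 member promoters held a kB-type match. No paired analysis was possible because the replicate numbers were given in accession order, not by the labels, and pair no samples. With 4 arrays per group and no detection calls, signals under 100 have no reliable order.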
